A study of Homo sapiens with 2 samples.

Results

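The 3 gene clusters of the epidermis were examined in a peak list of a ChIP for V5-tagged TET1 in human cardiac progenitors. They are the epidermal differentiation complex of chromosome 1, the type II keratins of chromosome 12 and the type I keratins with the keratin-associated genes of chromosome 17. The intervals were set by position on hg19, as chr1:151950001-153650000, chr12:52550001-53350000 and chr17:38800001-39800000, and a peak belonged to an interval when its midpoint lay inside. The rule found 83 of the 46208 peaks in the authors' list, 24 in the epidermal differentiation complex, 35 in the type II keratin interval and 24 in the type I interval. A window inside the type II interval, chr12:53290001-53350000, marks KRT8 and KRT18, and 6 of the 35 peaks lay in it. The 1 Mb on each side of each interval served for comparison and held 335 peaks in all.

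The cells came from H1, a widely used line of human embryonic stem cells. Its own TET1 gene had been given a V5 epitope tag, per the series' design text. The labels of both libraries nevertheless give the genotype as wild type, and their extraction protocol covers the isolation of genomic DNA but mentions no precipitation with an antibody. That the peaks are places of TET1 therefore rests on the title and design text. Differentiation was in a monolayer with the WNT activator CHIR99021 at 6 µM until day 2 and the WNT antagonist IWP2 at 5 µM from day 3 to day 5. No other treatment is listed, and chromatin was taken on day 7. The 2 groups, V5 ChIP and input, hold 1 library each and share line, differentiation and day. Whether the tagged line is a single clone, and whether untagged cells were precipitated, is not stated in the labels. The files hold no expression values, so the cell type was not checked against markers. The depth of sequencing was unknown, and there are no replicates for any value.

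TET1 oxidises methylated cytosine as the first step of its removal, and it carries a CXXC domain that binds DNA rich in CpG. Keratins are the intermediate filament proteins of epithelia and form filaments as pairs of a type I and a type II chain. KRT8 with KRT18 is the pair of simple epithelia and of the earliest embryonic epithelia, KRT5 with KRT14 that of the basal epidermis, and KRT1 with KRT10 that of the layers above. Involucrin (IVL), loricrin (LORICRIN), filaggrin (FLG) and the LCE and SPRR families, all encoded in the epidermal differentiation complex, build the barrier of the dead outer layer. The keratin-associated proteins (KRTAP) fill the hair shaft. The cornified envelope and hair proteins are products of skin and hair, not of heart.

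The matched starts of the cluster genes were poor in CpG. Of the 147 genes listed for the clusters, 122 matched the RefSeq promoter table of GRCh38.p14, with 134 starts. The 250 bases before these starts held a median of 2 CpG, against 16 over the 22198 starts of protein-coding genes. At least 16 CpG were present at 2 of the 134 starts (1.49%), where the share over all protein-coding starts was 52.2%. The table is on another build than the peaks, so this is a property of the genes and was not joined to peaks. To show the contrast, 250 bases before the start are given 5′ to 3′ on the gene's strand with each CpG in capitals, first for KRT8, for basal (KRT5) and suprabasal (KRT10) epidermis and for the cornified envelope (IVL, LORICRIN), then for the 2 starts with most CpG, S100A10 and S100A6, which were chosen after their values were seen.
KRT8: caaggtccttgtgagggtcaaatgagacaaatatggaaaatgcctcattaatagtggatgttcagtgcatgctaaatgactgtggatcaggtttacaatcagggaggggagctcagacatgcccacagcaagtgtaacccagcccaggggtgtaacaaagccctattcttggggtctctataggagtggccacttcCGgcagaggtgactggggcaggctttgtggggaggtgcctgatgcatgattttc
KRT5: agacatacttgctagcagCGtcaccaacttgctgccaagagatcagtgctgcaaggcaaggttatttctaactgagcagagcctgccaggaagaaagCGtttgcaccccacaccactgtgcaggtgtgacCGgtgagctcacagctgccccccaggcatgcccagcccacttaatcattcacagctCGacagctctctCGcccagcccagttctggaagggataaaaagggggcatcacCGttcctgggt
KRT10: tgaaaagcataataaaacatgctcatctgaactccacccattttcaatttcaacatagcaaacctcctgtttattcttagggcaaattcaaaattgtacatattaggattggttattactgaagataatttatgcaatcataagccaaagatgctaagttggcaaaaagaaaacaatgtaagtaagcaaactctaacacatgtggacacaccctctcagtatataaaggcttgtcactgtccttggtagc
IVL: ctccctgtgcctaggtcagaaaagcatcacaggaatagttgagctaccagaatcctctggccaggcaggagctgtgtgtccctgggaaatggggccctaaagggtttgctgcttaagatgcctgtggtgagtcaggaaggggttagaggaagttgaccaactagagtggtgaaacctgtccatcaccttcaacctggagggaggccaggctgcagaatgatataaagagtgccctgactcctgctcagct
LORICRIN: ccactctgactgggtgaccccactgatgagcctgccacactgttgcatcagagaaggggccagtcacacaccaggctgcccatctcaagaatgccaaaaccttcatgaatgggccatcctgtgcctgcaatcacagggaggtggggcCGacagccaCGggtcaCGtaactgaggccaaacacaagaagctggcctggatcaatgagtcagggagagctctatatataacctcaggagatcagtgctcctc
S100A10: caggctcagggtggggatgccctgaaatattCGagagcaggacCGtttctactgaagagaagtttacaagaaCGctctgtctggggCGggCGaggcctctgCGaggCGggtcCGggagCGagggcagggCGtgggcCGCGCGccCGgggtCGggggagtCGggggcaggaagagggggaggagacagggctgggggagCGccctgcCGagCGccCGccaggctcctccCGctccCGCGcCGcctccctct
S100A6: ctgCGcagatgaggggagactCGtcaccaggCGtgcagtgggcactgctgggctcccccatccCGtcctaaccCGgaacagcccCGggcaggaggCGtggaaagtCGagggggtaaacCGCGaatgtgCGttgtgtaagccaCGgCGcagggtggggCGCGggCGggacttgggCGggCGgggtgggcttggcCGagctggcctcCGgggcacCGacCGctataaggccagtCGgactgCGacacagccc
Of the genes chosen for printing, KRT18, KRT14 and KRT1 were not matched. Matches covered 13 of the 25 type II keratins other than KRT8 and 20 of the 28 type I keratins other than KRT18. KRT19 was among those without an entry. The CpG numbers of the unmatched keratins are not known here. KRT10 and IVL had 0 CpG in these letters, KRT8 had 1, LORICRIN 3 and KRT5 6, while S100A10 and S100A6 had 24 each. The KRT8 start in the table lies inside the span of the gene, and its other starts were not examined.

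Among the matched starts, those of S100A genes reached higher CpG numbers than those of the other listed families. The 19 LCE starts had 0 to 5 CpG, the 9 SPRR starts 0 to 2 and the 12 starts of FLG, IVL, LORICRIN and the other complex genes 0 to 3. The 14 starts of type II keratins other than KRT8 had 0 to 7, the 23 of type I keratins other than KRT18 had 0 to 6 and the 33 keratin-associated starts had 0 to 5. The S100A genes, which encode small calcium-binding proteins made in many tissues, ranged most widely, from 1 to 24 over 23 starts. Their median was 4, against 16 over all protein-coding starts, and 2 of the 23 starts reached 16. Per the gene order of GRCh38.p14, S100A10 and S100A11 stand at one end of the complex, before TCHHL1, TCHH, RPTN, HRNR and FLG. The remaining S100A genes stand at the other end, with CHTOP, SNAPIN and ILF2 next after S100A1.

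**Figure D1:**
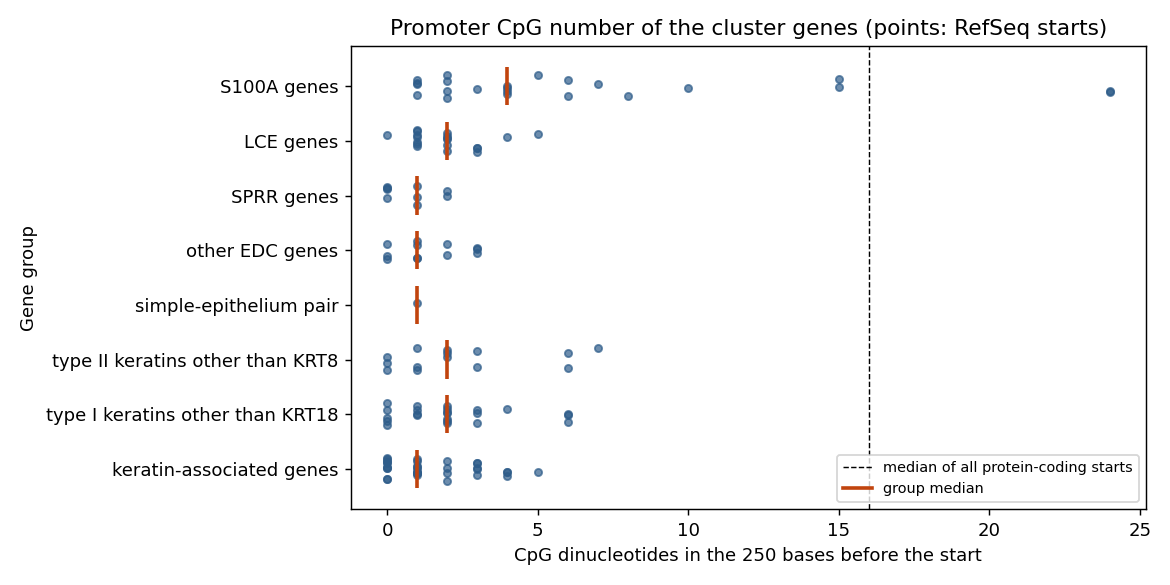
CpG dinucleotides in the 250 bases before each RefSeq start (x axis) by gene group (y axis), with 1 point for each start, a vertical bar at the group median and a dashed line at 16, the median of all protein-coding starts. S100A10 and S100A6, at 24 each, are the 2 points to the right of the line.

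Peaks in the epidermal differentiation complex stood on both sides of an empty stretch that took up most of its length. Its 24 peaks gave 14.1 per Mb (exact 95% Poisson interval 9.05 to 21.0), against 49.0 (36.3 to 64.8) in the flank at lower coordinates and 39.0 (27.7 to 53.3) in the flank at higher coordinates. The density was 0.321 times that of both flanks together (exact 95% interval of the ratio 0.195 to 0.509). The interval covers counting error only, and close peaks may not be independent of each other. Peaks covered 2.84% of the bases of the complex and 9.60% of those of its flanks. No p-value is given here or below, since 1 library stands behind the list.

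The empty part was a stretch of 1148 kb, chr1:152085595-153233205, which is 67.5% of the interval. Of the 46183 distances between neighbouring peaks in the whole list, 219 (0.474%) were as long or longer. The longest such stretch in the lower flank was 58.6 kb and in the upper flank 188 kb. In 100 kb windows, 11 of the 17 windows of the complex held no peak, where 50.2% of all windows held none. The lower flank had 0 empty windows of 10 and the upper flank 1 of 10. Against its surroundings the complex was therefore poor in peaks, but among consecutive windows of its length over all chromosomes 69.3% held as few peaks or fewer. For peaks scoring 300 or more, of which the complex had 7, that share was 60.8%.

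On the side of the lower coordinates 4 peaks spanned 121 kb. The peak with the highest score of the complex, 2192.25, was there, at chr1:151964418-151968021, and was 3604 bp wide. This score was assigned to the peak by the authors, has a minimum of 50 in the list and is used here only to rank peaks within it. It was followed by a peak at chr1:152007916-152010187 (score 608.18, 2272 bp). Last before the empty stretch came the widest peak of the complex, chr1:152079898-152085594, with 5697 bp and a score of 370.17. All but 1 of these 4 scored 300 or more.

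On the other side 20 peaks spanned 412 kb, and 17 of them were crowded into the last pair of 100 kb windows, with 7 and 10 peaks. The first after the empty stretch, chr1:153233206-153234771, scored 830.77 and stood apart from the next by 75.5 kb. The remaining strong ones lay close to the edge, at chr1:153583997-153586432 (score 1242.22), chr1:153605638-153608460 (512.53) and chr1:153630696-153632873 (533.59). Their midpoints were 64.8, 43.0 and 18.2 kb from the end of the interval. Of the 20 peaks, 4 scored 300 or more and the median score was 153, below the 489 of the 4 peaks at the other end. A peak with a score of 2177.84, chr1:153650022-153653497, lay just outside the interval, its midpoint 1.76 kb beyond the end.

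The type II keratin interval was not empty, but no peak outside the KRT8-KRT18 window scored 300 or more. Its 35 peaks gave 43.8 per Mb (30.5 to 60.8), against 52.0 (38.8 to 68.2) in the lower flank and 51.0 (38.0 to 67.1) in the upper flank. The ratio to both flanks was 0.850 (0.562 to 1.26), an interval that holds 1. The call depended on the setting: the ratio was 0.561 (0.365 to 0.846) against 0.5 Mb on each side and 0.525 (0.292 to 0.893) for scores of 100 or more, both below 1, and 1.05 (0.710 to 1.53) against 2 Mb. A score of 300 or more was reached by 3 of the 35 (8.57%, Wilson 95% interval 2.96% to 22.4%), against 48 of 103 in the flanks (46.6%, 37.3% to 56.2%). Over the whole list 37.9% of peaks reached it. Scores below 100 were carried by 18 of the 35 (51.4%, 35.6% to 67.0%), against 21.4% (14.5% to 30.2%) in the flanks and 32.9% over the whole list. Per Mb, the interval had 3.75 peaks of 300 or more and its flanks 24, a ratio of 0.156 (0.0311 to 0.485). For peaks below 300 the ratio was 1.45 (0.910 to 2.29). By total number 90.8% of consecutive windows of this length held as few peaks or fewer, and by peaks of 300 or more 61.2%.

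All 3 strong peaks lay in the KRT8-KRT18 window, and the 29 peaks outside it had none, which allows a share of up to 10.3% by 3 counts of 29 and up to 11.7% by the Wilson interval. Those 29 scored from 50.71 to 282.02 with a median of 97.2 and were 671 to 2153 bp wide. The highest of them were chr12:52701590-52703094 (score 282.02, 1505 bp) and chr12:52625967-52628119 (248.59, 2153 bp). Without the window the interval had 39.2 peaks per Mb (26.2 to 56.3), 0.761 times its flanks (0.486 to 1.16). The peaks crowded at the lower edge, where the first 100 kb window held 12, and thinned to 0 and 1 in windows 4 and 5. The longest peak-free stretches, 141 kb and 123 kb, lay on either side of a peak at chr12:52960493-52961474 that scored 118.54. As long a gap or longer than 141 kb made up 10.1% of the list.

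The KRT8-KRT18 window itself held 6 peaks by midpoint, and 44.8% of its bases were covered. That share includes the end of a further peak, not among the 6, whose midpoint lay just before the window. The rest of the type II interval was covered over 4.60%. The first peak, chr12:53290920-53302228, was 11309 bp wide and stood at a score of 3100, the value at which 2030 peaks of the list are tied; 99.8% of all peaks were narrower. A further 135 peaks of the list scored above 3100, up to 3233.06, so 3100 is not the highest score. Scores of 3100 or more were not ordered among themselves here. They are called the ceiling below and made up 4.69% of the list.

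Next came 3 peaks separated by short gaps over 5064 bp. They were chr12:53316934-53318492 (score 94.39, 1559 bp), chr12:53318534-53320772 (233.99, 2239 bp) and chr12:53320850-53321997 (77.66, 1148 bp). All 3 scored below 300, and their scores lay within the range of the 29 peaks outside the window. The last 2 peaks of the window, chr12:53336050-53341521 (501.43, 5472 bp) and chr12:53341594-53346430 (1876.05, 4837 bp), were 72 bp apart and together spanned 10381 bp. The window thus held 2 broad stretches, a wide peak at the lower edge and a double one near the upper edge. Between them lay the peaks that scored below 300.

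The density in the window, 6 peaks in 0.06 Mb (exact 95% Poisson interval of the count 2.20 to 13.1), was 2.55 times that of the rest of the interval (0.866 to 6.25). With 6 peaks that ratio was not resolved from 1. As many peaks or more were found in 3.72% of consecutive windows of this length over all chromosomes, and as many of score 300 or more in 2.74%. Just outside, with its midpoint 0.459 kb before the window, stood a peak of 1566 bp at chr12:53288759-53290324 with a score of 205.93. It and the ceiling peak were up to 1 kb apart and together spanned 13470 bp. No hg19 annotation was used here, so which peak lies at which start of KRT8 or KRT18 was not analysed.

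Against its flanks, the type I interval had few peaks and almost no strong ones. Its 24 peaks gave 24 per Mb (15.4 to 35.7), against 71.0 (55.5 to 89.6) in the lower flank and 73.0 (57.2 to 91.8) in the upper flank. The ratio to both flanks was 0.333 (0.207 to 0.516). Peaks covered 4.05% of its bases and 17% of its flanks. A score of 300 or more was reached by 2 of the 24 (8.33%, 2.32% to 25.8%), against 68 of 144 in the flanks (47.2%, 39.2% to 55.3%). Strong peaks stood at 2.00 per Mb against 34.0, a ratio of 0.0588 (0.00698 to 0.221), and weaker peaks at a ratio of 0.579 (0.343 to 0.941). The flanks are themselves dense. Over all chromosomes 81.5% of consecutive windows of this length held as few peaks or fewer, and 45.3% as few strong ones or fewer.

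Unlike the epidermal differentiation complex, this interval had 0 of 10 windows without a peak, but the peaks in its middle were thin and none scored 300 or more. One strong peak, chr17:38803214-38805282 (score 1282.49, 2069 bp), lay 4.25 kb inside the lower edge. Between 38974636 and 39211678 on chromosome 17 stood 6 peaks with scores from 52.68 to 214.01 and widths of 617 to 1223 bp. A lone peak at chr17:39362172-39363136 (118.64, 965 bp) followed, with 150 kb free of peaks before it and 117 kb after it. The longest free stretch of the interval was 153 kb. In all, 8 of the 10 windows held no peak of 300 or more, where 68.1% of all windows held none, 1 of 10 did in the lower flank and 0 of 10 in the upper flank.

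The last pair of windows held 13 of the 24 peaks, and the other strong peak was among them. That peak, chr17:39679653-39687292, was 7640 bp wide and stood at the ceiling of 3100. Neighbours at chr17:39675413-39676525 (92.09) and chr17:39677260-39679397 (263.42) joined it at gaps under 1 kb, and the 3 spanned 11880 bp. A further 5 peaks followed up to position 39705957, and the highest of these were chr17:39691920-39694482 (240.77) and chr17:39702968-39705957 (220.74). This was the sole place in the interval where a peak at the ceiling was found. In the gene order of GRCh38.p14 this end of the cluster runs KRT13, KRT15, KRT19, KRT9, KRT14, KRT16 and KRT17. KRT19 is a keratin of simple epithelia, KRT13 and KRT15 belong to stratified epithelia, KRT9 to palm and sole, and KRT16 and KRT17 to wounded skin and hair follicles. The peak was not joined to any of them.

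**Figure D2:**
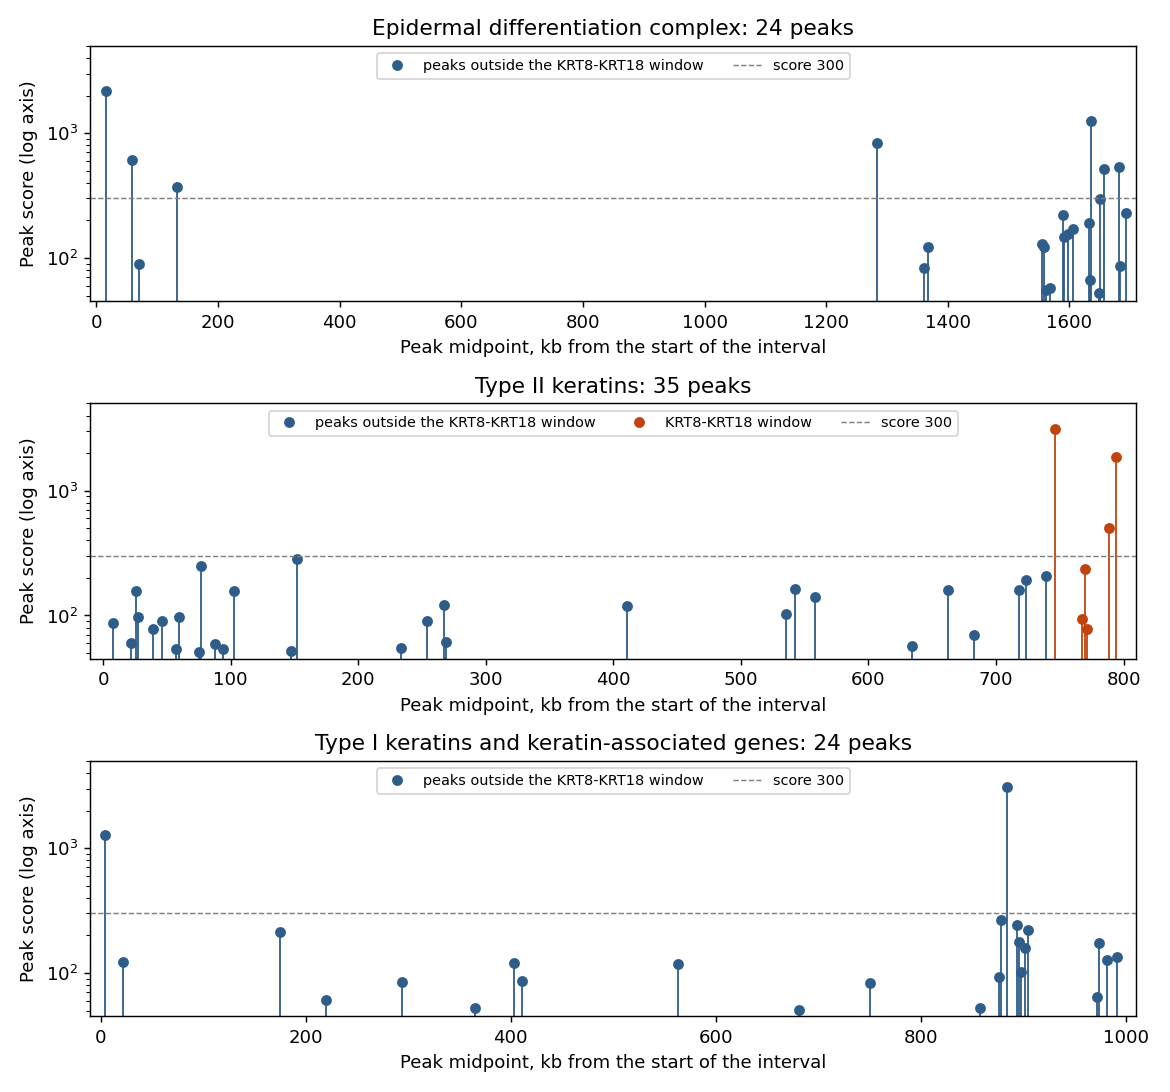
Score of each of the 83 peaks (y axis, log scale) against its midpoint in kb from the start of its interval (x axis), with the 6 peaks of the KRT8-KRT18 window in a second colour and a dashed line at 300. The complex of chromosome 1 is empty over 1148 kb, and the keratin intervals each have 1 peak at 3100, near their upper end.

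**Figure D3:**
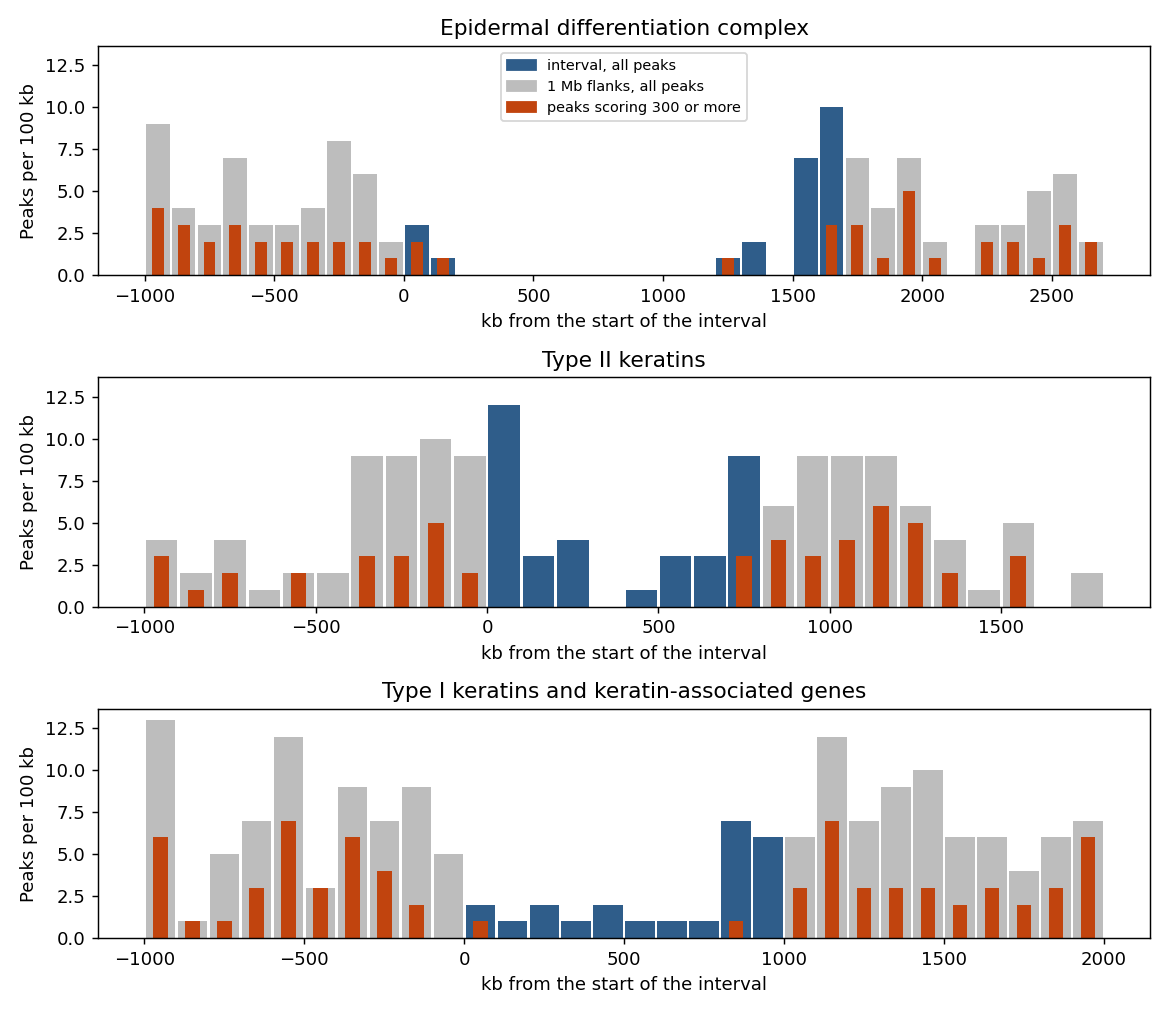
Peaks in consecutive 100 kb windows (y axis) across each interval and the 1 Mb on either side (x axis, kb from the start of the interval), with peaks scoring 300 or more as the narrow bars in front. Windows without a peak number 11 of 17 in the complex, 1 of 8 in the type II interval and 0 of 10 in the type I interval.

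Set side by side, the complex and the type I interval were less dense than the type II interval. The complex had 0.323 times the density of the type II interval (0.184 to 0.558), and the type I interval 0.549 times (0.312 to 0.949). The complex and the type I interval were not resolved from each other, at a ratio of 0.588 (0.320 to 1.08). These 3 ratios are the comparisons made between intervals. In score the order was another. The complex, the emptiest, had 7 of 24 peaks at 300 or more (29.2%, 14.9% to 49.2%), and the keratin intervals 8.57% and 8.33%, with Wilson intervals that overlap that of the complex. In its flanks the share was 48.9% (38.7% to 59.1%), also overlapping.

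**Figure D4:**
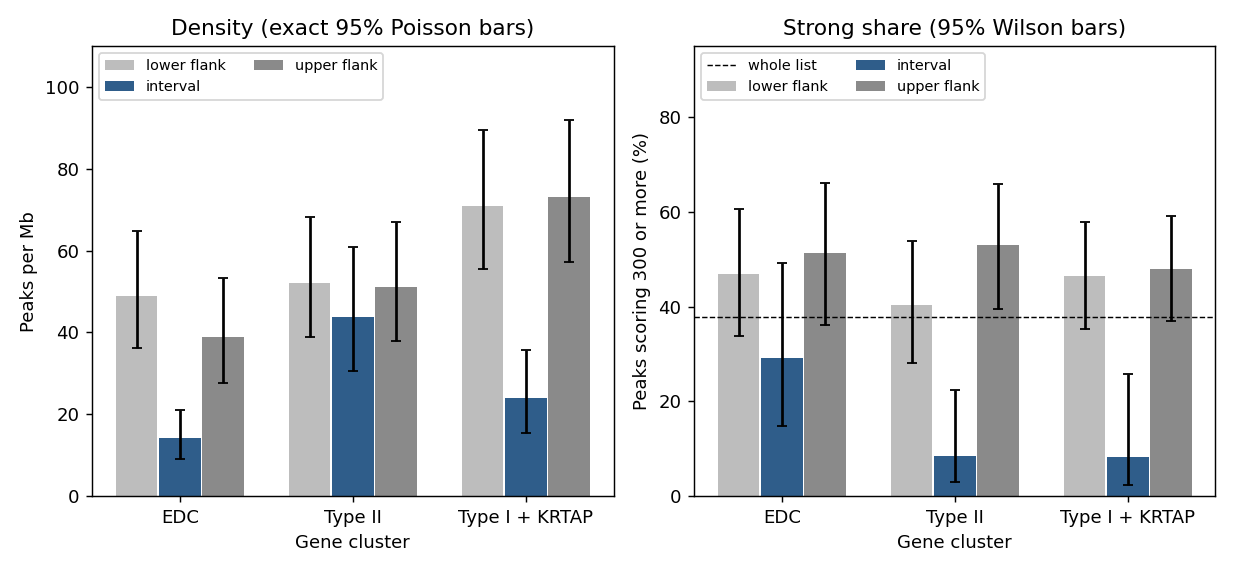
Peaks per Mb (left, bars with exact 95% Poisson intervals) and percent of peaks scoring 300 or more (right, 95% Wilson intervals, dashed line at the 37.9% of the whole list) in each interval and its flanks (EDC, the epidermal differentiation complex). Density is below that of the flanks in the complex (14.1) and the type I interval (24). The strong share in both keratin intervals (8.57% and 8.33%) is below that of their flanks and of the whole list.

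Over all 83 peaks, 12 scored 300 or more (14.5%, 8.47% to 23.6%), against 159 of 335 in the flanks (47.5%, 42.2% to 52.8%). The share over the whole list, 37.9%, lay between them. The median score was 123 in the clusters, 249 in the flanks and 172 in the whole list, and the median widths were 1437, 1804 and 1531 bp. At the ceiling stood 2 of the 83 peaks and 9 of the 335, where the share over the whole list was 4.69%. A neighbour with its midpoint within 10 kb was present for 19 of 24 peaks in the complex (79.2%) and 56 of 88 in its flanks (63.6%), where the share over the whole list was 56.7%. In the type II interval it was present for 28 of 35, and in its flanks for 69 of 103 (67.0%). The type I interval had 14 of 24 (58.3%), close to the whole list and below the 117 of 144 (81.3%) in its flanks.

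**Figure D5:**
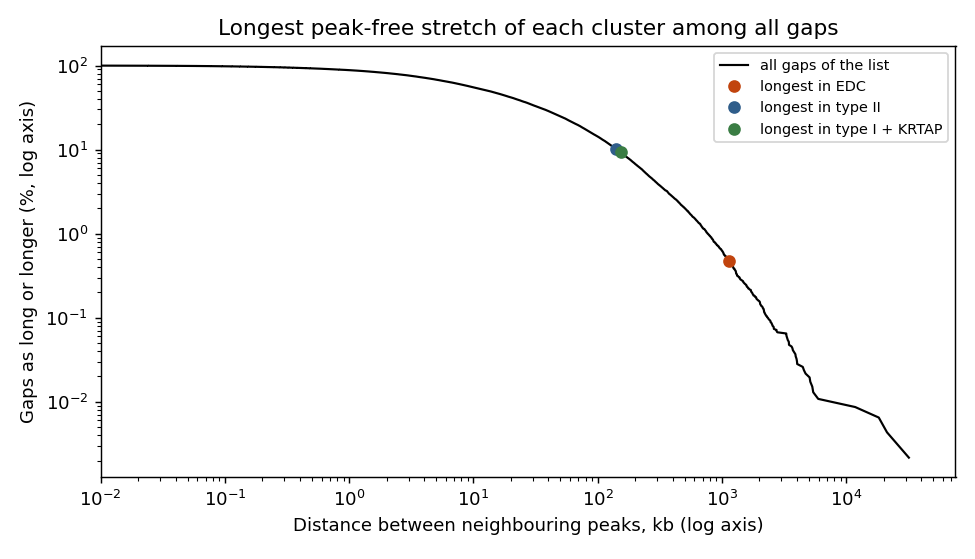
Percent of all 46183 distances between neighbouring peaks that are as long or longer (y axis, log scale) against the distance in kb (x axis, log scale), with the longest of each interval marked (EDC, the epidermal differentiation complex). The longest stretch of the complex, 1148 kb, lies at 0.474%, and those of the keratin intervals, 141 and 153 kb, at 10.1% and 9.30%.

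The widest peaks of the flanks show the scale of the neighbourhood. Around the complex they were chr1:151168708-151174403 (5696 bp, score 1076.47) and chr1:151482880-151487484 (4605 bp, 1432.83) below it, and chr1:153933968-153941755 (7788 bp, 2835) and chr1:154296833-154302192 (5360 bp, 3061.86) above it. Around the type II interval they were chr12:52238925-52243927 (5003 bp, at the ceiling) and chr12:52473051-52477536 (4486 bp, 846.15) below, and chr12:53609209-53617923 (8715 bp, at the ceiling) and chr12:53439634-53445784 (6151 bp, 2260.02) above. The peak of 11309 bp in the KRT8-KRT18 window was thus wider than any within 1 Mb of the type II interval. Around the type I interval they were chr17:38496925-38508620 (11696 bp) and chr17:38471409-38480492 (9084 bp) below and chr17:39965853-39972388 (6536 bp) above, each at the ceiling, and chr17:40703534-40709100 (5567 bp, 1530.91) above. The ceiling peak of the type I interval, at 7640 bp, was narrower than the first pair and wider than the other two.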

How the data were processed

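The material was 1 V5 ChIP library and 1 input library. Per the submitters' processing notes, BWA 0.7.17 was the aligner and hg19 the build. The peak list has no header. Its peak names carry the prefix of MACS; neither its version nor its options were given in the sources used here. A score per peak is part of the deposited list and has no stated unit, and read numbers were not used here. Positions are counted from 1.

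Counts, widths, scores, covered bases and distances were computed with Python 3.11.15 (scipy 1.17.1, numpy 2.4.6, pandas 2.3.3), and figures were drawn with matplotlib 3.10.9. Counts carry exact 95% Poisson intervals, shares 95% Wilson intervals and ratios of densities exact conditional binomial intervals. Only the intervals of ratios were tested on simulated counts. Those counts were independent, so the test did not cover the crowding of peaks seen in this list. Background windows ran consecutively between the outermost peaks of each chromosome and include peak-free intervals. Gene names and their order came from a RefSeq table of GRCh38.p14 and were not joined to peaks, since no hg19 annotation was used here. Of an interval with more than 12 peaks, the 5 highest scores and the widest peak were named, together with peaks that border long free stretches or an edge, which were chosen after their values were seen. Of each flank the 2 widest were named. The intervals, gene lists and thresholds were chosen with earlier results of these data known. Alternatives were score thresholds of 100 and 300, overlap of 1 bp in place of the midpoint, merging of peaks up to 1 kb apart, flanks of 0.5 and 2 Mb, covered bases in place of peaks, each flank alone and the type II interval without the KRT8-KRT18 window. The last 2 were added after seeing the data.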

Additional observations from a re-analysis of the deposited data

How the results depend on the processing

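Of 32 alternative values for 4 results, 25 stayed within the counting interval of the value as deposited (for the KRT8-KRT18 window, within 1.5 times its count) and 7 moved. None turned a resolved ratio to the other side of 1. With scores of 300 or more the density ratio to the flanks was 0.192 for the epidermal differentiation complex, 0.156 for the type II interval and 0.0588 for the type I interval, and the KRT8-KRT18 window held 3 peaks. The type II ratio, whose interval as deposited holds 1, was 0.525 (0.292 to 0.893) with scores of 100 or more and 0.561 (0.365 to 0.846) against 0.5 Mb on each side, where the interval lies below 1, but 1.05 (0.710 to 1.53) against 2 Mb. After merging peaks up to 1 kb apart the KRT8-KRT18 window held 3 peaks. For the other alternatives the ratio ran from 0.283 to 0.362 in the complex, from 0.677 to 0.858 in the type II interval and from 0.238 to 0.352 in the type I interval. No paired analysis was possible because ChIP and input are 1 library each. Read depth and mappability were not examined, so a stretch without peaks is a stretch without a call in this list and not shown to lack TET1.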
